A study of Homo sapiens with 27 samples.

Results

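Mitochondrial ribosomal protein genes were taken as the rows of the gene count table whose symbol begins with MRPL or MRPS followed by a digit, which gave 81 of the 26485 rows. Of these, 77 are protein-coding, and the other 4 are the pseudogenes MRPL42P5, MRPL45P2 and MRPS31P5 and the antisense transcript MRPL23-AS1. After the filter on low counts, 79 members (all 77 protein-coding genes, MRPL45P2 and MRPS31P5) were among the 14789 genes tested, while MRPL23-AS1 and MRPL42P5 had at most 2 and 1 counts in any library. RNA-seq was performed in T47D, a long-established luminal breast cancer line, after transduction with a lentiviral vector and selection with puromycin. The control pool carried the empty vector, and 3 mutant pools expressed a Ty1-tagged truncation mutant of the transcription factor GATA3, named Splice del (a deletion at a splice site), C321fs or A333fs (frameshifts in the second zinc finger). All 4 pools kept their own wild-type GATA3, each line was 1 pool, and each gave 3 libraries. Because nothing places the libraries in separate pools, a p-value here measures only the spread between libraries of a pool, and any other feature of a pool enters each of its comparisons.

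Mitochondrial ribosomes translate the few proteins that the mitochondrial genome encodes, all of which are subunits of the respiratory chain and ATP synthase. Their RNA comes from the mitochondrial genome, whereas every protein of the large subunit (MRPL names, with a few MRPS names) and the small subunit (MRPS names) is encoded in the nucleus and imported. A part of these proteins descends from bacterial ribosomal proteins and another part is found in mitochondria alone. Of the protein-coding members, 50 belong to the large subunit and 26 to the small subunit, and MRPS36 is now known as a component of the 2-oxoglutarate dehydrogenase complex. By origin, 46 have a bacterial counterpart and 30 are mitochondrial alone. MRPL58 was listed in the table under an older symbol and was therefore outside the rule.

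The exons of the members ranged widely in base composition, from 35.3% to 67.2% GC with a median of 50.5%, beside a median of 49.6% over 14782 tested genes with a sequence. This property is shown first because the differences between the lines varied with it. Below are 120 bases from the middle of the longest coding exon of 4 members, read from hg38 on the coding strand with the GENCODE annotation, with G and C in capitals. MRPL12 (chr17:81704277-81704396, plus strand, exon 2) and MRPL4 (chr19:10259654-10259773, plus strand, exon 9) were lower in the mutant lines, and MRPS10 (chr6:42211789-42211908, minus strand, exon 4) and MRPL47 (chr3:179602665-179602784, minus strand, exon 2) were higher in at least 2 of them. The stretches hold 62.5% GC in MRPL12, 65% in MRPL4, 40% in MRPS10 and 37.5% in MRPL47.
MRPL12: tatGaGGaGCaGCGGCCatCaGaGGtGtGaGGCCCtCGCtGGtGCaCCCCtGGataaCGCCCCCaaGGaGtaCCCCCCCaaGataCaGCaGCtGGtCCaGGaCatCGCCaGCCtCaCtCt
MRPL4: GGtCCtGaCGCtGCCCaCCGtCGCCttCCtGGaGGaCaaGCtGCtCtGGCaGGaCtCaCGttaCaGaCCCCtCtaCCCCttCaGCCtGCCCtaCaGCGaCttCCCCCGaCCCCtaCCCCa
MRPS10: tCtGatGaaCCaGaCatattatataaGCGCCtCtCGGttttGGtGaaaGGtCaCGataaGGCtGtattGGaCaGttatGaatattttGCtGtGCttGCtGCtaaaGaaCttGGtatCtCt
MRPL47: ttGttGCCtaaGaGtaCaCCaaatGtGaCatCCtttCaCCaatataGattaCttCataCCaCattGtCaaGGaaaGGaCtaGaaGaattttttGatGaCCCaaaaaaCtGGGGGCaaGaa

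Libraries held 27872208 to 36788024 counted fragments. The TMM factors that scale the library sizes were 0.884 to 0.943 in control and 1.01 to 1.05 in the mutant lines, so the control libraries stood apart in composition. Replicate 1 of C321fs stood apart from its own line: its counts differed from those of replicates 2 and 3 by a chi-square per gene of 15.8 and 27.8, beside 2.16 to 10.4 for the other pairs within a line. All 9 luminal markers were above 1 CPM (the count scaled to the library's size) in each library, with a summed level of 13000 to 22100 CPM. The summed level of 3 basal markers was 0.236 to 1.29 CPM, of 4 fibroblast markers 29.5 to 64.9 CPM with 2 of them (COL1A1 and COL3A1) above 1 CPM throughout, of 3 blood markers 2.71 to 4.78 CPM with 1 above 1 CPM, and of 2 endothelial markers at most 0.0957 CPM. Of the 2 tested fibroblast markers 1, 2 and 2 were lower in Splice del, C321fs and A333fs, with medians of -0.68, -0.69 and -1.24 on the log2 scale. Of all tested genes 22.4%, 20.7% and 26.4% were lower. The median GC content of the 2 markers was 56.9%. In the fit without the trend over GC content and exon length, described further on, 1, 1 and 2 were lower (medians -0.533, -0.487 and -0.955). Of all tested genes 21.2%, 17.2% and 15.1% were lower in that fit. COL1A2 and PDGFRB had at most 0.0339 CPM. The part of the fibroblast markers in the results was not tested. GATA3 itself (chr10:8054704-8075201), whose count cannot separate the introduced mutant from the cell's own transcript, stood at 1250, 1340 and 1260 CPM in control, at 962, 992 and 1050 with Splice del, at 1140, 1130 and 1150 with C321fs and at 1020, 1010 and 1030 with A333fs. Each mutant library was below each control library, and the log2 fold changes were -0.36 with Splice del (adjusted p = 3.3e-05), -0.17 with C321fs (adjusted p = 0.013) and -0.33 with A333fs (adjusted p = 4.5e-05). With the trend over GC content and exon length described further on removed, they were -0.23, -0.03 and -0.15 (adjusted p = 5.6e-05, 0.52 and 0.0027). No mutant line thus had a higher GATA3 count than control, and the count does not show which lines carry the introduced gene.

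The members as a set took a slightly smaller share of the counts in the mutant lines. In control they made up 0.669% ± 0.00712 (SD, n = 3) of all counts. The share was 0.590% ± 0.00278 with Splice del, 0.639% ± 0.0477 with C321fs and 0.636% ± 0.0148 with A333fs. The share in replicate 1 of C321fs, 0.690%, was above the 3 control libraries (0.661% to 0.675%), while replicates 2 and 3 of that line had 0.629% and 0.596%. After TMM scaling, the mean of the 79 tested members was 6.05 ± 0.05 log2 CPM in control, 5.76 ± 0.01 with Splice del, 5.88 ± 0.12 with C321fs and 5.92 ± 0.03 with A333fs, and each mutant library lay below each control library. A lower count of a gene in these bulk samples cannot tell fewer cells that express it from less RNA per cell.

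In the control line, levels per length (RPKM, which is CPM per kilobase of exon) varied widely between members. The highest were MRPS34, a small subunit protein found in mitochondria alone, at 294 ± 17.3 RPKM, MRPL41, a large subunit protein of the same kind, at 275 ± 22.3 RPKM, and MRPL12, which forms the stalk that binds translation factors, at 274 ± 20.7 RPKM. Those 3 means lay within their spread of each other. The lowest protein-coding members were MRPS24 at 0.653 ± 0.192 RPKM, MRPL19 at 8.41 ± 0.498 RPKM and MRPL35 at 11.1 ± 0.537 RPKM. MRPS24 had at most 19 counts in a library, and 87.07% of its exon bases overlap the readthrough gene URGCP-MRPS24 of the same strand, so that fragments touching both were given to neither. The pseudogenes MRPL45P2 (5.06 ± 0.285 RPKM) and MRPS31P5 (0.610 ± 0.0211 RPKM) resemble MRPL45 and MRPS31, and reads shared with these parents make their counts uncertain.

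In Splice del cells, most mitochondrial ribosomal protein genes were lower than in control. With edgeR (quasi-likelihood, Benjamini-Hochberg adjusted over all tested genes) and a threshold of 0.01 for the adjusted p, 46 of the 79 members (58.2%) were lower and 2 were higher, whereas 22.4% of all tested genes were lower and 18.7% higher. The median log2 fold change of the members was -0.33, beside 0.03 over all genes tested. With a further limit of a 1.5-fold change, 16 members were lower and 1 higher, or 17 of 79 beside 10.7% of all genes, and 3 were lower and none higher once the trend over GC content and exon length described further on was removed. In that fit 217 of the 14789 tested genes were lower and 826 higher past the same limits. By subunit, 32 of 50 large subunit genes were lower and none higher (median -0.39), and 14 of 26 small subunit genes were lower and 1 higher (median -0.22). The median GC content of the exons was 51.0% and 46.9% in these subunits, and with the trend removed their medians were -0.253 and -0.254. Genes with a bacterial counterpart (28 of 46 lower, 1 higher) and mitochondrial genes (18 of 30 lower, none higher) had medians of -0.34 and -0.38. MRPS36, the member outside the ribosome, had a log2 fold change of 0.19 ± 0.09 (SE, adjusted p = 0.097) here and was higher in A333fs by 0.33 ± 0.09 (adjusted p = 0.0066). Its exons had the lowest GC content of the members, and with the trend removed these values were -0.06 (adjusted p = 0.54) and -0.02 (adjusted p = 0.89).

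C321fs and A333fs cells showed smaller median differences of the same sign. In C321fs, 36 of 79 members (45.6%) were lower and 4 higher, with a median of -0.21, and 20.7% of all tested genes were lower and 16.1% higher. Without replicate 1 of C321fs these numbers were 41 lower and 7 higher with a median of -0.26, without replicate 3 they were 26 lower and 4 higher with a median of -0.15, and without control replicate 2 there were 26 lower. Without control replicate 1 or C321fs replicate 2, 2 were higher. In A333fs, 33 members (41.8%) were lower and 13 (16.5%) higher, with a median of -0.16, and 26.4% of all tested genes were lower and 21.0% higher. Without control replicate 1 there were 8 higher members, and without A333fs replicate 2 the median was -0.09 with 27 lower. With the 1.5-fold limit, 1 member was lower in C321fs (6.88% of all genes passed in either direction), and 6 were lower and 1 higher in A333fs (12.3% of all genes). With the same trend removed, 1 was lower and none higher in each of these lines. Of the 14789 tested genes, 162 and 178 were then lower and 540 and 642 higher past this limit in C321fs and A333fs. In C321fs 25 of 50 large subunit genes and 11 of 26 small subunit genes were lower, and 3 and 1 were higher. In A333fs 24 large and 9 small subunit genes were lower, and 7 and 4 were higher.

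The 3 comparisons share the control libraries, so their agreement is not independent. At an adjusted p below 0.01, without the 1.5-fold limit, 30 of 79 members (38%) were lower than control in each of the 3 mutant lines, beside 14.7% of all tested genes. At the same threshold 1 member, MRPS10, was higher in each, beside 8.93% of all genes. No member passed the test in opposite directions in different mutant lines. In the F-test of any difference among the 4 lines, 56 of 79 members (70.9%) passed, and 56.2% of all tested genes did.

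Among large subunit genes, those of the stalk and its base were lower. MRPL12 (chr17:81703370-81707526, 64.5% GC) stood at 257, 299 and 279 CPM in control, at 147, 152 and 161 with Splice del, at 237, 183 and 166 with C321fs and at 179, 170 and 170 with A333fs. Each mutant library was below each control library, and the C321fs libraries were spread over the widest range. The log2 fold changes were -0.86 ± 0.10 with Splice del (SE, adjusted p = 4.2e-06), -0.51 ± 0.10 with C321fs (adjusted p = 0.00053) and -0.69 ± 0.10 with A333fs (adjusted p = 2.4e-05). MRPL10, which anchors the stalk to the ribosome, stood at 110 to 119 CPM in control, at 76.4, 79.3 and 84.6 with Splice del, at 91.1, 88.3 and 85.2 with C321fs and at 82.6, 75.6 and 79.7 with A333fs. It was lower in each mutant library, by -0.51 (adjusted p = 4.0e-06), -0.37 (adjusted p = 0.00011) and -0.52 (adjusted p = 2.5e-06) on the log2 scale. MRPL11, at the base of the stalk, went from 124 to 133 CPM in control to 75.3 to 83.3 in Splice del, a log2 fold change of -0.70 ± 0.08 (adjusted p = 4.3e-06).

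Other large subunit genes with a bacterial counterpart that were lower included MRPL4 and MRPL2. MRPL4, which has a bacterial counterpart (chr19:10251964-10260060, 61.9% GC), stood at 101, 118 and 109 CPM in control, at 66.0, 63.0 and 69.4 with Splice del, at 100, 77.3 and 80.5 with C321fs and at 68.7, 68.7 and 69.1 with A333fs. Replicate 1 of C321fs was only just below the control range, and the other mutant libraries were well below it. The log2 fold changes were -0.73 (adjusted p = 5.0e-06), -0.35 (adjusted p = 0.0030) and -0.67 (adjusted p = 8.3e-06). MRPL2, next to the site where peptide bonds form, changed by -0.66 (adjusted p = 5.8e-06), -0.42 (adjusted p = 0.00042) and -0.67 (adjusted p = 3.8e-06) in the same order of lines, and MRPL24 by -0.66 (adjusted p = 1.3e-06), -0.43 (adjusted p = 8.7e-05) and -0.43 (adjusted p = 4.4e-05). MRPL21 and MRPL28 were lower in Splice del by -0.66 (adjusted p = 1.0e-05) and -0.65 (adjusted p = 1.5e-05). MRPL45, which sits at the exit of the nascent chain and faces the inner membrane, did not pass the test in any line, with log2 fold changes of -0.11, -0.03 and 0.10, and with the trend removed it was lower in Splice del (-0.15, adjusted p = 0.0078).

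Among large subunit proteins found in mitochondria alone, MRPL37 had the smallest adjusted p of the 79 members in Splice del and C321fs. MRPL37 (chr1:54200167-54218383, 55.8% GC) stood at 182, 207 and 184 CPM in control, at 121, 122 and 127 with Splice del, at 149, 142 and 131 with C321fs and at 136, 129 and 134 with A333fs. The control libraries were above each mutant library, with log2 fold changes of -0.63 (adjusted p = 8.5e-07), -0.44 (adjusted p = 3.6e-05) and -0.52 (adjusted p = 3.5e-06). MRPL38 (chr17:75898643-75905100, 64.1% GC) stood at 188, 218 and 196 CPM in control, at 124, 121 and 127 with Splice del, at 165, 139 and 133 with C321fs and at 129, 118 and 125 with A333fs. Its log2 fold changes were -0.70 (adjusted p = 2.6e-06), -0.47 (adjusted p = 0.00014) and -0.70 (adjusted p = 2.0e-06), with no overlap with control. MRPL54 (60.7% GC) was the member past the 1.5-fold limit in C321fs, at 40.0, 44.1 and 41.2 CPM in control and 32.8, 24.2 and 22.4 CPM in C321fs (log2 fold change -0.66 ± 0.10, adjusted p = 0.00011). The 3 C321fs libraries of MRPL54 lay below the control libraries, replicate 1 again the highest. MRPL41 and MRPL52 were lower in Splice del by -0.60 (adjusted p = 7.4e-05) and -0.61 (adjusted p = 4.0e-05). MRPL44, whose protein has a ribonuclease III fold, had log2 fold changes of -0.16, -0.10 and -0.05, none of which passed, but was lower in each line with the trend removed (-0.26, -0.23 and -0.24, adjusted p = 0.00050, 0.0022 and 0.0016).

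The genes named MRPS18A, MRPS18B and MRPS18C are paralogs of which the first is placed in the large subunit. MRPS18A (57.4% GC) stood at 88.8, 97.9 and 85.1 CPM in control, at 58.9, 56.6 and 57.1 with Splice del, at 79.6, 66.8 and 58.8 with C321fs and at 60.6, 59.5 and 59.6 with A333fs. It was lower in each mutant library, with log2 fold changes of -0.66 (adjusted p = 1.4e-05), -0.41 (adjusted p = 0.0011) and -0.60 (adjusted p = 2.4e-05). MRPS18B (52.7% GC) changed by -0.47 (adjusted p = 5.9e-06), -0.39 (adjusted p = 4.9e-05) and -0.27 (adjusted p = 0.00052). MRPS18C (40.5% GC), of whose exon bases 60.22% overlap FAM175A on the other strand, had values of -0.20 (adjusted p = 0.040), 0.01 (adjusted p = 0.91) and 0.15 (adjusted p = 0.11). MRPS30, another MRPS name placed in the large subunit, was lower in Splice del by -0.30 (adjusted p = 0.00045) and did not pass in C321fs (-0.16, adjusted p = 0.027) or A333fs (-0.09, adjusted p = 0.19). With the trend removed MRPS30 was lower in each line, by -0.35, -0.23 and -0.22 (adjusted p = 4.5e-06, 0.00043 and 0.00080), and MRPS18C was lower in Splice del by -0.33 (adjusted p = 0.00032).

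In the small subunit, MRPS2 (chr9:135500631-135504673, 61.6% GC) stood at 86.2, 105 and 90.6 CPM in control, at 59.1, 55.8 and 61.0 with Splice del, at 74.0, 66.6 and 65.1 with C321fs and at 62.0, 58.9 and 61.4 with A333fs. Each mutant library was below control, and the log2 fold changes were -0.68 (adjusted p = 2.4e-06), -0.45 (adjusted p = 0.00013) and -0.63 (adjusted p = 3.8e-06). A transcript on the other strand, LOC101928525, overlaps 11.36% of its exon bases. MRPS12, a protein of the decoding centre, was lower in Splice del by -0.62 (adjusted p = 0.00027), with 14.29% of its exon bases overlapped by SARS2. MRPS34 was lower in Splice del by -0.60 (adjusted p = 3.2e-05).

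**Figure D1:**
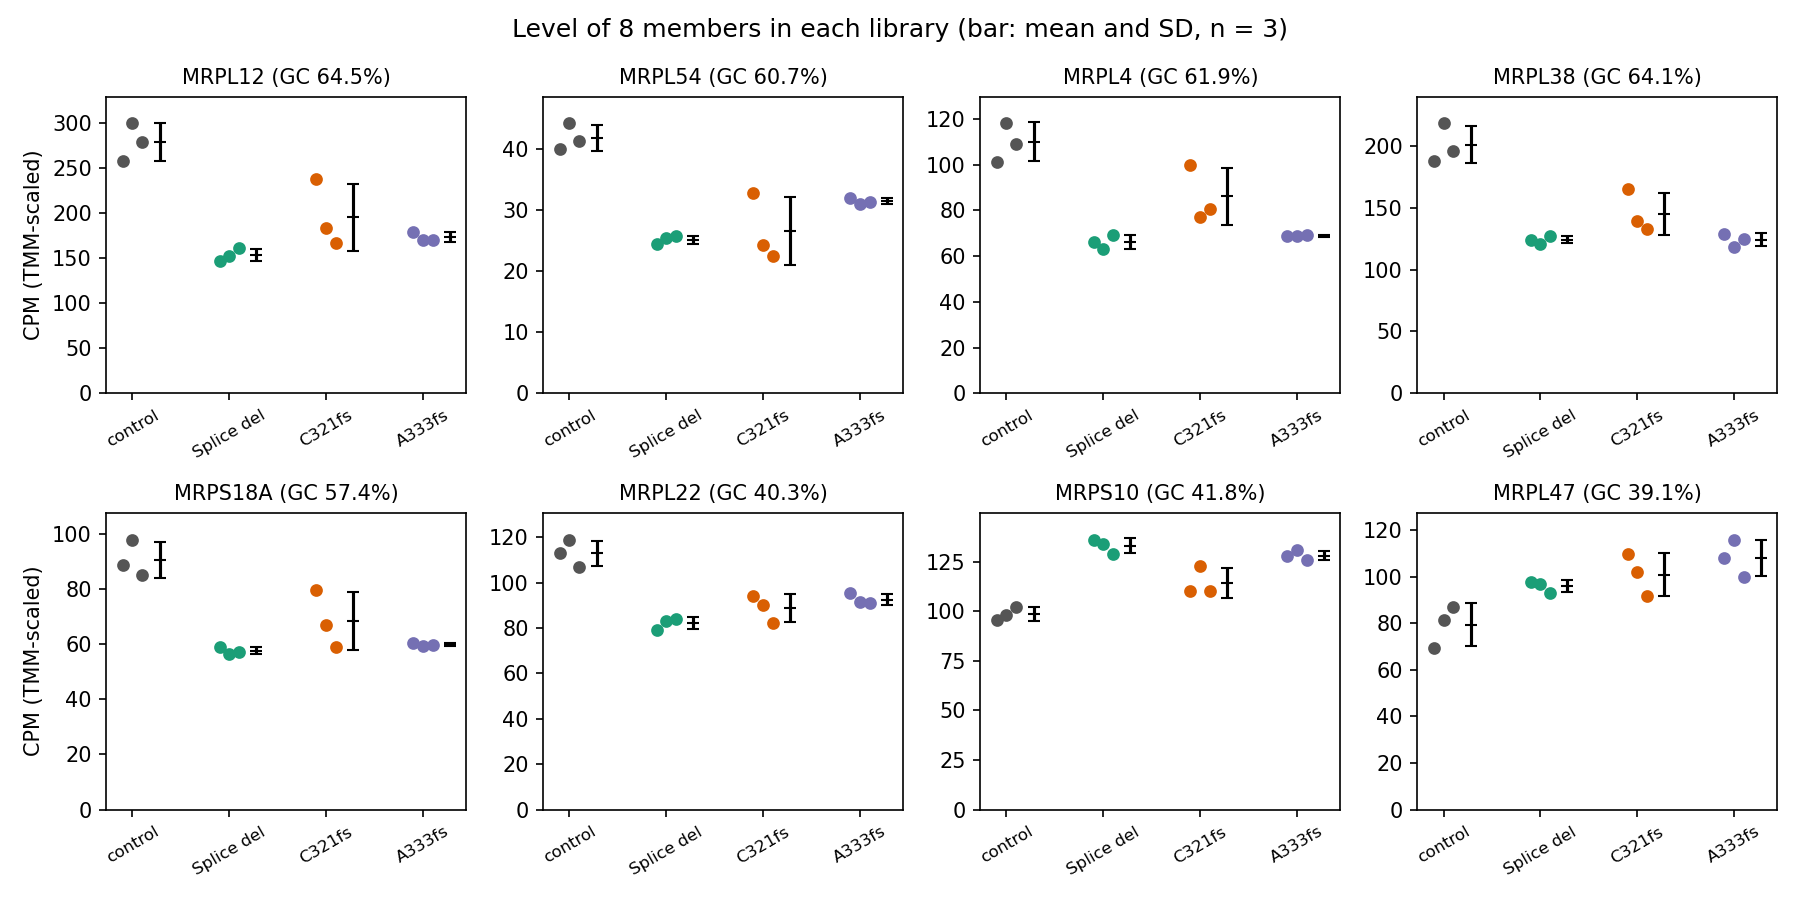
Level of 8 members in each library, in CPM after TMM scaling, by line (points, 3 libraries a line; black bars, mean and SD). In the first 6 panels each mutant library lies below each control library, and for MRPS10 and MRPL47 above it.

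Fewer members rose against control than fell. MRPS10 (chr6:42206801-42217895, 41.8% GC), a small subunit protein with a bacterial counterpart, stood at 95.7, 97.9 and 102 CPM in control, at 136, 134 and 129 with Splice del, at 110, 123 and 110 with C321fs and at 128, 131 and 126 with A333fs. Each mutant library was above control, with log2 fold changes of 0.43 ± 0.05 (adjusted p = 1.1e-05), 0.21 ± 0.05 (adjusted p = 0.0045) and 0.38 ± 0.05 (adjusted p = 2.9e-05). In C321fs the call was lost without replicate 2 of C321fs (adjusted p = 0.034), without control replicate 1 (0.023) and without control replicate 2 (0.017). MRPL47 (chr3:179588466-179604646, 39.1% GC) stood at 69.5, 81.7 and 87.2 CPM in control, at 97.7, 97.1 and 93.1 with Splice del, at 110, 102 and 91.9 with C321fs and at 108, 116 and 100 with A333fs. It was above control in each mutant library and passed the test in C321fs (0.35, adjusted p = 0.0025) and A333fs (0.44, adjusted p = 0.00028) but not in Splice del (0.27, adjusted p = 0.011). MRPL13 rose by 0.32 (adjusted p = 0.0011) in C321fs and 0.42 (adjusted p = 8.6e-05) in A333fs, MRPL35 by 0.26 (adjusted p = 0.0012) and 0.30 (adjusted p = 0.00023), and MRPL42 by 0.38 (adjusted p = 0.00029) in A333fs. The pseudogene MRPS31P5, at 2.05 to 2.18 CPM in control, was at 2.72 to 4.13 CPM in Splice del and 2.58 to 3.83 CPM in A333fs (0.70, adjusted p = 0.0052, and 0.67, adjusted p = 0.0063), and these calls were lost without any 1 of the control libraries (adjusted p 0.016 to 0.023), without Splice del replicate 1 or 2 (0.041 and 0.015) and without A333fs replicate 1 or 2 (0.028 and 0.016).

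The direction of the differences followed GC content. Across the 79 members, the log2 fold change and the GC content of the exons had Spearman coefficients of -0.83, -0.84 and -0.88 for Splice del, C321fs and A333fs, and across 14782 tested genes these were -0.51, -0.55 and -0.67. These are descriptions across genes, which share libraries and are not replicates. The members were divided by GC content into groups of nearly equal size. In the low-GC group (27 members, 35.3% to 45.4%), 2, 2 and 1 members were lower in Splice del, C321fs and A333fs and 2, 4 and 13 were higher. In the middle group (26 members, 45.8% to 52.7%), 19, 12 and 10 were lower and none higher. In the high-GC group (26 members, 52.9% to 67.2%), 25, 22 and 22 were lower and none higher. Thus the members called higher in any mutant line were all in the low-GC group.

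Other genes of the same GC range moved in the same order but to a smaller degree on the lower side. In Splice del the members of the high-GC group had a median log2 fold change of -0.60 with 96.2% lower, and 5582 other genes in that range had a median of -0.23 with 41.9% lower. In the middle group the members had a median of -0.34 with 73.1% lower, and 3393 other genes 0.00 with 18.9% lower. In the low-GC group the members had a median of 0.05 with 7.41% higher, and 4944 other genes 0.25 with 36.0% higher. In A333fs the medians in the high-GC group were -0.48 for members and -0.35 for other genes (84.6% and 55.5% lower), and in the low-GC group 0.23 and 0.28 (48.1% and 45.4% higher). In C321fs they were -0.42 and -0.22 in the high-GC group, and 0.07 and 0.25 in the low-GC group.

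The same trend can be read in single libraries. The mean log2 CPM of the high-GC group minus that of the low-GC group was 0.928, 1.019 and 0.880 in control, at 0.328, 0.244 and 0.389 with Splice del, at 0.587, 0.348 and 0.351 with C321fs and at 0.290, 0.166 and 0.348 with A333fs. The control libraries were above all mutant libraries, and replicate 1 of C321fs was nearest to them. Base composition of the counted fragments therefore moved with the groups, and since the labels name no batch that separates control from mutant libraries, a technical origin and the effect of the mutants cannot be told apart here.

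**Figure D2:**
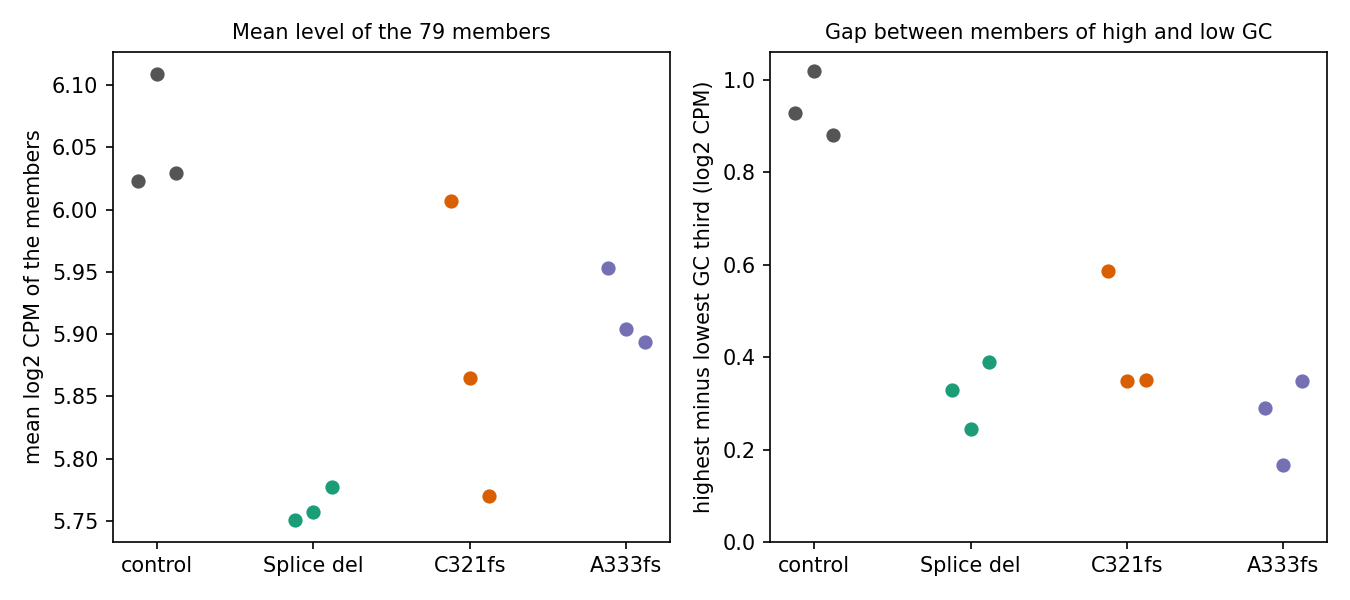
Mean log2 CPM of the 79 tested members (left; the axis does not start at 0) and the high-GC minus the low-GC group of members (right) in each library, by line. The 3 control libraries lie above the 9 mutant libraries in both panels.

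The comparison was repeated after a smooth dependence on GC content and exon length had been fitted in each library, on genes that are not members, and taken out. In Splice del 51 of 79 members were then lower and 1 higher, with a median of -0.25, while 21.2% of all tested genes were lower and 16.3% higher. In C321fs 36 were lower and 1 higher with a median of -0.17 (17.2% and 11.3% of all genes). In A333fs 29 were lower and 2 higher with a median of -0.08 (15.1% and 13.3% of all genes). Of the members lower at first, 41 of 46, 31 of 36 and 23 of 33 were lower in both fits in Splice del, C321fs and A333fs, and of those higher at first, 1 of 2, 1 of 4 and 2 of 13 were higher in both. No member switched from one called direction to the other. Lower in all 3 lines were 25 members (8.24% of all genes), of which 19 were among the 30 of the first fit, and higher in all 3 was none (4.35% of all genes).

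Many values moved towards 0 with the removal of the trend, and some members lost or gained a call. MRPL37 still passed as lower, with log2 fold changes of -0.41 (adjusted p = 5.8e-08), -0.27 (adjusted p = 1.7e-05) and -0.29 (adjusted p = 6.8e-06), and MRPL12 of -0.50 (adjusted p = 5.0e-09), -0.24 (adjusted p = 4.6e-05) and -0.24 (adjusted p = 6.5e-05). MRPS10 stayed higher in Splice del (0.24, adjusted p = 5.3e-05), but its value was -0.01 in C321fs (adjusted p = 0.88) and 0.11 in A333fs (adjusted p = 0.031). MRPL35 went to -0.03 (adjusted p = 0.66) in C321fs and -0.01 (adjusted p = 0.84) in A333fs, and MRPL47 to 0.12 (adjusted p = 0.049) and 0.16 (adjusted p = 0.012). MRPL42 went to 0.02 in A333fs (adjusted p = 0.80), and MRPS31P5 to 0.51 in Splice del (adjusted p = 0.020) and 0.44 in A333fs (adjusted p = 0.054). Among members that had been lower, MRPL4 no longer passed in C321fs (-0.12, adjusted p = 0.033). MRPL13 stayed higher in C321fs (0.18, adjusted p = 0.0030) and A333fs (0.21, adjusted p = 0.00084). MRPL22, which lines the exit tunnel, stood out from members of like GC content (40.3%) in the opposite way; it was named after its values were seen. Its level was 107 to 119 CPM in control, at 79.2, 83.1 and 84.2 with Splice del, at 94.1, 90.2 and 82.1 with C321fs and at 95.3, 91.6 and 91.1 with A333fs, with no overlap with control. Its log2 fold changes were -0.46, -0.35 and -0.29 (adjusted p = 1.3e-05, 0.00023 and 0.00064) and became -0.72, -0.62 and -0.59 with the trend removed (adjusted p = 1.0e-07, 1.2e-06 and 1.6e-06).

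**Figure D3:**
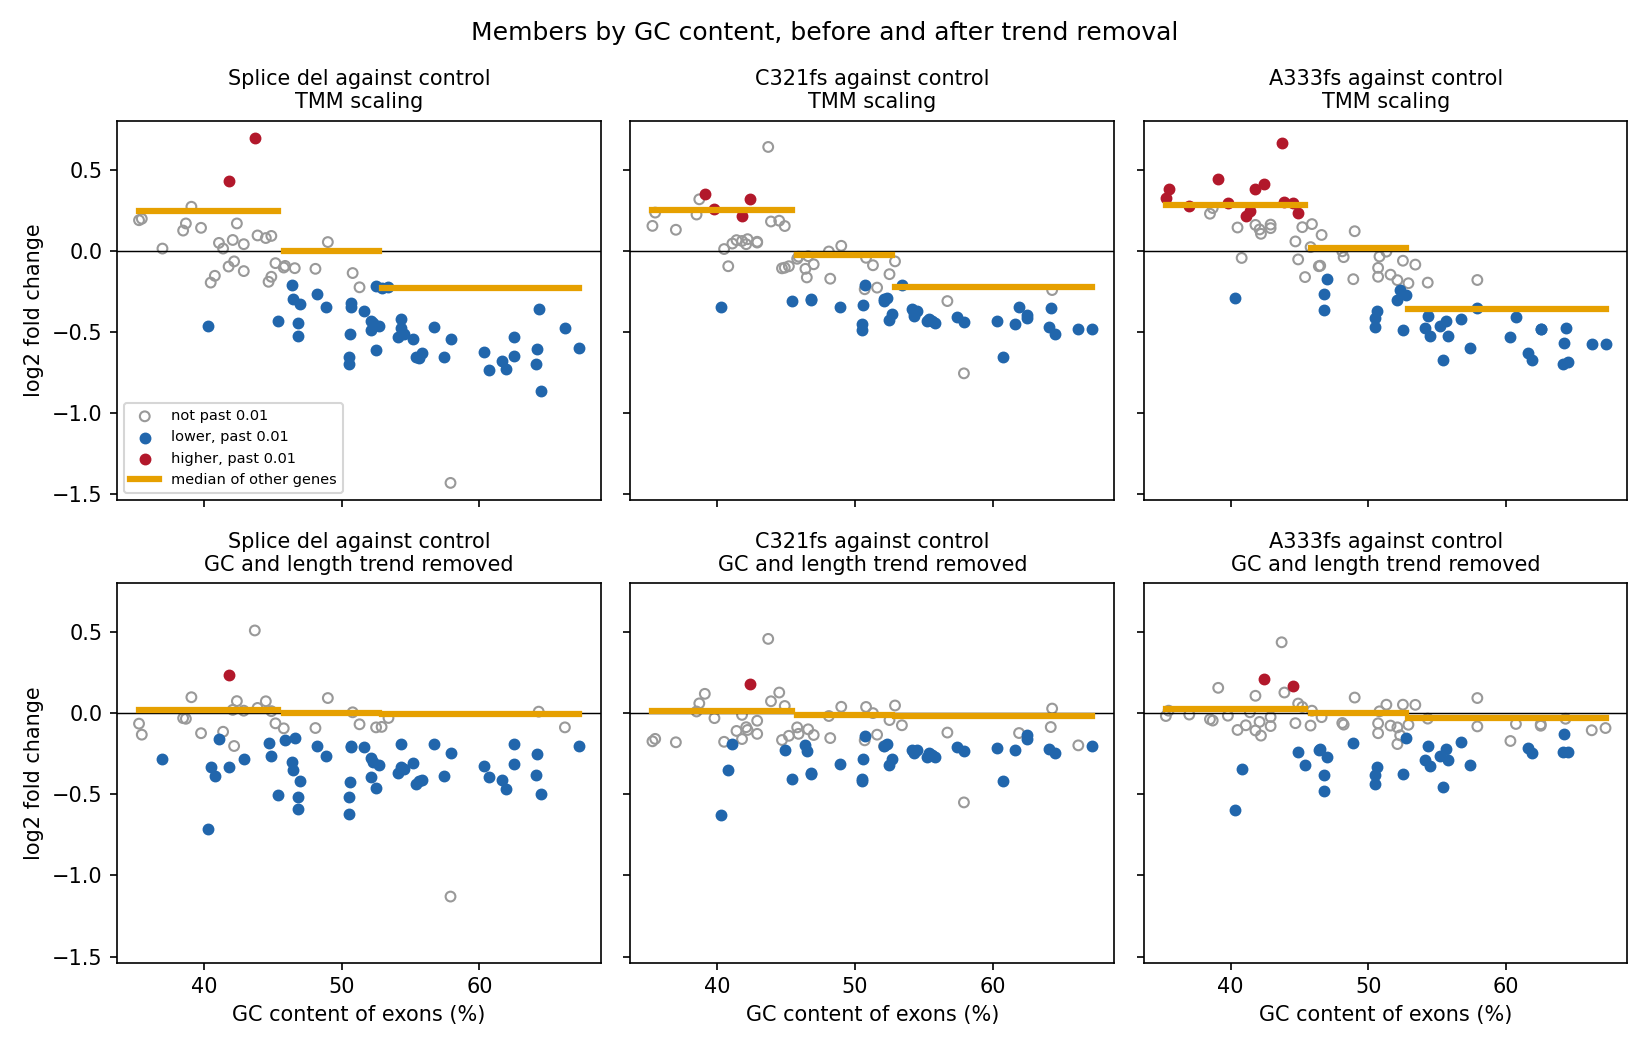
Log2 fold change of the 79 tested members against control by the GC content of their exons (%), before (top) and after (bottom) removal of the trend over GC content and length; filled points passed an adjusted p of 0.01 and orange lines are medians of other genes in each GC group. The slope from upper left to lower right flattens but does not vanish in the bottom row, where 51, 36 and 29 members passed as lower.

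Scaling moved the zero line. With upper-quartile factors the median of all tested genes was 0.12, 0.11 and 0.12 in Splice del, C321fs and A333fs, and with library size alone it was 0.22, 0.19 and 0.15. The higher calls then made up 61.8%, 63.6% and 61.1% (upper quartile) or 75.6%, 77.7% and 65% (library size alone) of all calls, in place of 45.5%, 43.7% and 44.4% with TMM. The median of the members minus the median of all genes was -0.36, -0.23 and -0.17 with TMM and -0.36, -0.23 and -0.17 with either of the other scalings. For the members, 6, 11 and 21 were higher and 40, 29 and 25 lower with upper-quartile factors, and 16, 19 and 24 were higher and 32, 18 and 23 lower with library size alone. Of the 14789 tested genes, 3976, 3659 and 4488 were higher and 2461, 2094 and 2863 lower with upper-quartile factors. With library size alone, 5313, 4743 and 4799 of them were higher and 1711, 1363 and 2584 lower. The member calls of a lower level are thus relative to the other genes, and their number depends on the scaling.

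Differences between the mutant lines were few at this spread. Against C321fs, Splice del had 2 lower members and none higher (2.14% of all genes lower, 4.18% higher), with a median of -0.11. Against C321fs, A333fs had 1 lower member and none higher (8.89% and 6.80% of all genes), with a median of 0.05. Against Splice del, A333fs had 7 higher members and none lower (4.63% of all genes higher, 7.29% lower), with a median of 0.16. Of the members' log2 fold changes 72 of 79 were positive, beside 6850 of 14789 over all tested genes, and the members are not replicates. No member passed the 1.5-fold limit in these pairs (2.64%, 5.55% and 3.0% of all genes). The 7 were 0 without replicate 3 of Splice del, 1 without replicate 1 or 2 of Splice del or replicate 1 of A333fs, 4 without replicate 3 of A333fs, 12 without replicate 3 of C321fs and 22 without replicate 1 of C321fs. DESeq2 called 1 higher and 4 lower in the first pair, 4 higher and 1 lower in the second, and 23 higher and none lower in the third.

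The members with the smallest adjusted p in these pairs were of both subunits. MRPL4 was lower in Splice del (-0.38 ± 0.09, adjusted p = 0.0068) and in A333fs (-0.32 ± 0.09, adjusted p = 0.0099) than in C321fs, and without replicate 1 of C321fs these became -0.26 (adjusted p = 0.015) and -0.20 (adjusted p = 0.032). The first call was also lost without control replicate 3, any Splice del library or A333fs replicate 3 (adjusted p 0.010 to 0.041), and the second without those libraries or A333fs replicate 1 or 2 (0.013 to 0.031). MRPS25, a small subunit protein of mitochondria alone, stood at 91.9, 89.2 and 85.5 CPM in Splice del and 106, 108 and 103 in C321fs, with no overlap (-0.25 ± 0.05, adjusted p = 0.0047), and NR2C2 overlaps 16.82% of its exon bases. MRPL3, at the site of peptide bond formation, stood at 149, 152 and 146 CPM in Splice del and 182, 186 and 177 in A333fs (0.29 ± 0.05, adjusted p = 0.0014), while its control libraries, at 156, 165 and 166 CPM, lay between. With the trend removed, control no longer lay between: against it MRPL3 was at -0.28 in Splice del (adjusted p = 6.0e-06) and -0.08 in A333fs (adjusted p = 0.10). MRPS23 (0.27 ± 0.06, adjusted p = 0.0034) and MRPL19 (0.26 ± 0.06, adjusted p = 0.0041) were also higher in A333fs than in Splice del. With the trend over GC content and length removed, Splice del against C321fs had 12 lower and 1 higher member (5.25% and 6.71% of all genes), A333fs against C321fs 1 lower and 3 higher (9.03% and 12.3%), and A333fs against Splice del 17 higher and none lower (9.50% and 6.82%).

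Promoters of the members were searched for letters bound by factors known to act on genes of mitochondrial proteins: NRF1 (GCGCANGCG), ETS factors such as GABP (CCGGAAGT) and YY1 (ATGGCGGC), on both strands. RefSeq promoters of 300 bases (250 before and 50 after the start, GRCh38.p14) were matched for 69 of 81 members, and these were identical to hg38. The NRF1 letters stood in 18.8% of member promoters and 9.3% of 22365 promoters of genes in the table, the ETS letters in 15.9% and 5.1%, and the YY1 letters in 26.1% and 3.8%. In no member did matches of different motifs overlap. The sequences of 3 members are shown 5′ to 3′ with matches in capitals, because the YY1 letters stood in a member that fell (MRPL38) and in members that rose (MRPS10, MRPL47).
MRPL38, chr17:75904835-75905134, minus strand: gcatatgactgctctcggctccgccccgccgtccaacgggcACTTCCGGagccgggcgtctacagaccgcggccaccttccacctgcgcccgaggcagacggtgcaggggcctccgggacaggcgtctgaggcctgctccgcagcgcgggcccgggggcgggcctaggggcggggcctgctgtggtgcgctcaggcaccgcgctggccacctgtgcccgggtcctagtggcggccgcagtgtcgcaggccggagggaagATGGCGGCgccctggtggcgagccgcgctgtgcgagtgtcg
MRPS10, chr6:42217812-42218111, minus strand: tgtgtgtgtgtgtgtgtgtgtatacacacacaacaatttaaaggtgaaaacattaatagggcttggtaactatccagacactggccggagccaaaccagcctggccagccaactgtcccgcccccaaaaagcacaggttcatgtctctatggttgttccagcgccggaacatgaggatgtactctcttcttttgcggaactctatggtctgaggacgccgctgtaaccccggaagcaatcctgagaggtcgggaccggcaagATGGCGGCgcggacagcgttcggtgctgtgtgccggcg
MRPL47, chr3:179604589-179604888, minus strand: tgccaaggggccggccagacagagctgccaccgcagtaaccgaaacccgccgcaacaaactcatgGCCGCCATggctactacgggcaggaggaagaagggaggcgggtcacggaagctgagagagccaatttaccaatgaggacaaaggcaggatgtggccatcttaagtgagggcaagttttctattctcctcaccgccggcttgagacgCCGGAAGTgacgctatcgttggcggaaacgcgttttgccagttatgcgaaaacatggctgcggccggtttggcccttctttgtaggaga
MRPL38 and MRPL47 held an ETS and a YY1 match each, and MRPS10 held a YY1 match. The YY1 letters of MRPL38 and MRPS10 lie just after the start, and those of MRPL47 lie 185 bases before it on the other strand. A match of letters is a description of these windows and not evidence of binding.

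The factors themselves were partly altered. MYC, a broad activator of growth genes, was lower in each mutant line by -1.02, -0.66 and -0.92 (adjusted p = 2.1e-09, 6.5e-07 and 4.6e-09), and with the trend removed by -0.88, -0.52 and -0.74 (adjusted p = 4.6e-12, 1.4e-08 and 4.0e-11). PPRC1, a coactivator of the PGC-1 family, was lower by -0.58, -0.54 and -0.60 (adjusted p = 2.0e-06, 8.5e-06 and 1.2e-06). PPARGC1A, a coactivator of the same family, was higher in Splice del (1.38, adjusted p = 5.4e-06) and A333fs (1.90, adjusted p = 1.5e-07) from a low control level of 0.333 RPKM, and in C321fs by 0.60 (adjusted p = 0.0096), where it was 0.37 (adjusted p = 0.049) with the trend removed. NRF1 was lower by -0.36, -0.38 and -0.37 (adjusted p = 0.00070, 0.00073 and 0.00054). Of the 9 factors, 1, 3 and 2 were higher and 5, 3 and 5 lower in Splice del, C321fs and A333fs (medians -0.287, -0.199 and -0.367). Lower shares were 55.6%, 33.3% and 55.6%, beside 22.4%, 20.7% and 26.4% of all tested genes, and higher shares 11.1%, 33.3% and 22.2%, beside 18.7%, 16.1% and 21.0%. With the trend removed, 1, 1 and 2 were higher and 4, 3 and 4 lower, and the medians were -0.030, -0.002 and -0.112. The part of these factors in the differences of the members was not tested.

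Other genes of mitochondrial translation were counted for comparison. Of 23 assembly and rRNA factors, 15, 13 and 13 were lower and 0, 2 and 1 higher in Splice del, C321fs and A333fs, with medians of -0.34, -0.25 and -0.26. Examples in Splice del were the rRNA methyltransferase MRM1 (-0.72, adjusted p = 4.0e-06) and the helicases DHX30 (-0.57, adjusted p = 5.2e-06) and DDX28 (-0.61, adjusted p = 5.6e-06). Of 17 mitochondrial aminoacyl-tRNA synthetases, 11, 9 and 10 were lower and 1, 0 and 4 higher (medians -0.29, -0.23 and -0.21), such as SARS2 (-0.63, adjusted p = 4.8e-06) and VARS2 (-0.58, adjusted p = 6.5e-06) in Splice del. Of 14 translation factors, 4, 4 and 3 were lower and 3, 3 and 6 higher (medians -0.043, -0.001 and 0.199). The lower shares, 28.6%, 28.6% and 21.4%, were near those of all tested genes (22.4%, 20.7% and 26.4%). TUFM, the elongation factor that brings tRNA to the ribosome, was lower by -0.66, -0.44 and -0.63 (adjusted p = 2.1e-06, 0.00012 and 2.5e-06), whereas the initiation factor MTIF3 was higher by 0.46 in Splice del (adjusted p = 0.00010) and 0.40 in C321fs (adjusted p = 0.00053) and 0.48 in A333fs (adjusted p = 5.6e-05), and GFM2, which acts in ribosome recycling, by 0.51 in A333fs (adjusted p = 3.5e-06). With the trend removed, no value in Splice del was below -0.435 among the assembly factors or below -0.586 among the synthetases. Log2 fold changes of the translation factors then ran from -0.488 to 0.413 in Splice del, -0.355 to 0.311 in C321fs and -0.356 to 0.331 in A333fs.

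Of 5 ribosomal proteins with other symbols, 2 were lower in each line, and 0, 0 and 1 were higher. GADD45GIP1, a large subunit protein, was lower by -0.80, -0.53 and -0.65 (adjusted p = 6.0e-06, 0.00035 and 3.0e-05) and AURKAIP1, a small subunit protein, by -0.66, -0.40 and -0.58 (adjusted p = 3.3e-05, 0.0027 and 9.0e-05), and their exons hold 67.1% and 67.4% GC. PTCD3, of the small subunit, was higher in A333fs by 0.26 (adjusted p = 0.0012). With the trend removed 4, 2 and 1 of the 5 were lower and none higher, and in A333fs AURKAIP1 was at -0.07 (adjusted p = 0.17) and PTCD3 at 0.08 (adjusted p = 0.14). Of 12 genes of mitochondrial transcription and RNA stability, 3 were lower in each line and 1, 3 and 5 higher (medians 0.06, 0.14 and 0.23), with POLRMT, the mitochondrial RNA polymerase, lower in A333fs (-0.73, adjusted p = 1.9e-06). With the trend removed, the assembly factors had 13, 7 and 7 lower and none higher, the synthetases 8, 7 and 5 lower and 0, 0 and 1 higher, and the translation factors 6, 5 and 2 lower and 1, 1 and 4 higher. The transcription and RNA stability genes then had 6, 4 and 3 lower and 0, 0 and 1 higher, and their medians turned to -0.149, -0.053 and -0.039. Of all tested genes, 21.2%, 17.2% and 15.1% were lower and 16.3%, 11.3% and 13.3% higher in that fit. Genes encoded in mitochondria were not analysed here.

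**Figure D4:**
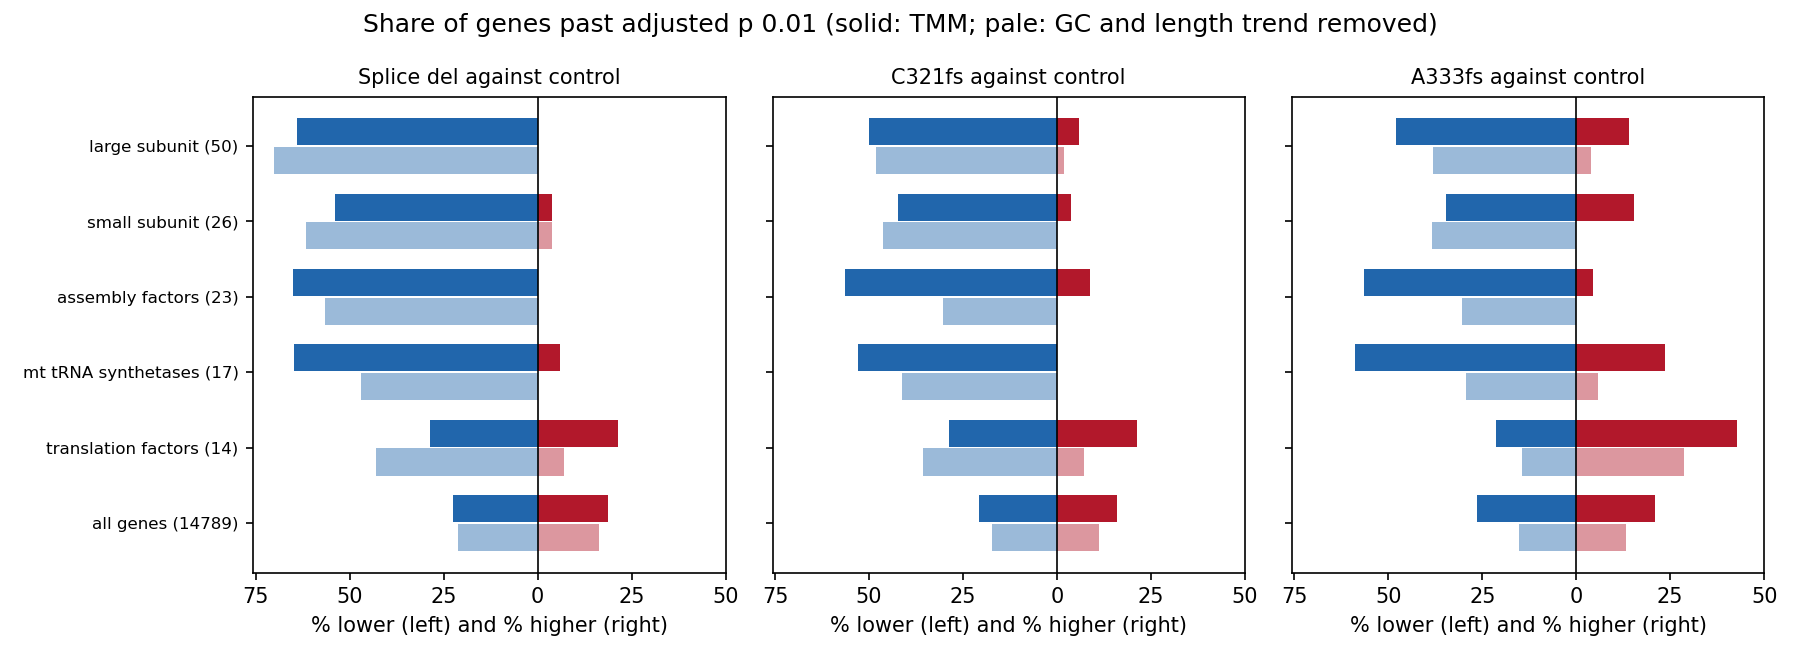
Share of tested genes (%) lower (left, blue) and higher (right, red) than control at an adjusted p below 0.01 for each mutant line, for the 2 subunits, 3 groups of related genes and all genes (number tested in brackets); solid bars are from TMM scaling and pale bars after trend removal. Large subunit genes are lower in 64.0%, 50.0% and 48.0% of cases, beside 22.4%, 20.7% and 26.4% of all genes.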

How the data were processed

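RNA-seq of T47D pools was used here, with 3 libraries for each of 4 lines, and the ChIP-seq of the same lines was not used. After read trimming and alignment to hg38, the authors assigned properly paired fragments to genes with featureCounts 1.6.4, ignoring strand and leaving out fragments shared by several genes. The deposited values are these counts, not normalized. HISAT2 is listed in the processing notes while the count table's header points to another aligner, so the aligner is not settled, and the labels and methods name different growth media.

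Genes were kept with filterByExpr by line and TMM-scaled, and edgeR 4.0.16 (quasi-likelihood, R 4.3.3) was fitted to all 12 libraries with 1 term for each line, with a threshold of 0.01 on the Benjamini-Hochberg adjusted p. CPM are TMM-scaled, and log2 CPM used a prior count of 2. The trend over GC content and exon length (hg38, exons of the count table) was removed by robust loess (span 0.3), entered as offsets. Alternatives were RLE, upper-quartile and no scaling factors, other filters, DESeq2 1.42.0, fits to 1 pair, a replicate block, other thresholds, the GC trend alone and fits without each library; library size alone and the GC trend alone were chosen after seeing the data. The procedure was also run on simulated counts, without a trend or with a straight trend over GC content in Splice del alone. That setting is simpler than the trend in these libraries, and no result here rests on it. The members, gene lists and tests were chosen with earlier results of these data known. Named members were those past a 1.5-fold change, those with the smallest adjusted p in each comparison and direction, those shared by the 3 mutant lines, the extremes of level, and members with a special place or paralogs. For the lists, genes with the smallest adjusted p were named.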

Additional observations from a re-analysis of the deposited data

Results flagged for a closer look

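By the test between the mutant lines themselves, 9 members differed, and the 5 with the smallest adjusted p in each pair are given here. Against C321fs, 2.53% of members were lower in Splice del and 1.27% in A333fs, beside 2.14% and 8.89% of all tested genes. In A333fs against Splice del 8.86% of members were higher, beside 4.63%. In the opposite directions no member passed, whereas 4.18%, 6.80% and 7.29% of all tested genes did. MRPL4 was lower in Splice del than in C321fs by -0.38 on the log2 scale (adjusted p = 0.0068) and lower in A333fs than in C321fs by -0.32 (adjusted p = 0.0099). MRPS25 was lower in Splice del than in C321fs by -0.25 (adjusted p = 0.0047). MRPL19, MRPL3 and MRPS23 were higher in A333fs than in Splice del by 0.26 (adjusted p = 0.0041), 0.29 (adjusted p = 0.0014) and 0.27 (adjusted p = 0.0034), and the others in that pair were MRPL15, MRPL18, MRPL30 and MRPS18C. None of these 6 calls held without each of the libraries in turn. Without Splice del replicate 3 the adjusted p was 0.014 and 0.013 for MRPL4 (against C321fs, in Splice del and A333fs), 0.033 for MRPS25, 0.018 for MRPL19, 0.010 for MRPL3 and 0.011 for MRPS23. MRPL19 and MRPS23 were also lost without Splice del replicate 1 or 2 or A333fs replicate 1 (adjusted p 0.012 to 0.025), MRPS25 without Splice del replicate 1 or 2 or C321fs replicate 2 (0.011 to 0.025), and MRPL4 without further libraries, among them C321fs replicate 1 (0.015 and 0.032). Replicate 1 of C321fs, which stood apart from its line, held the highest C321fs value of MRPL4 (100 CPM beside 77.3 and 80.5). With the trend over GC content and length removed, 5 of these 6 differences kept their direction and an adjusted p below 0.01, and for MRPL4 in A333fs against C321fs the value was -0.13 (adjusted p = 0.035).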

How the results depend on the processing

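The counts of lower members against control stayed within 1.5 times of those in the report except with library size alone in C321fs and with the 1.5-fold limit, whereas the counts of higher members and those between mutant lines were less stable. The values that moved are given as counts of higher members unless stated. RLE factors gave 1 higher and 0 lower in A333fs against C321fs and 11 in A333fs against Splice del. Upper-quartile factors gave 6, 11 and 21 in Splice del, C321fs and A333fs against control (medians -0.238, -0.126 and -0.047), 1 in A333fs against C321fs and 16 in A333fs against Splice del. Library size alone gave 16, 19 and 24 against control, 18 lower in C321fs (medians -0.141, -0.045 and -0.012), 1 in Splice del against C321fs and 3 lower in A333fs against C321fs. Without a filter there were 7 in C321fs against control, 3 in A333fs against C321fs and 18 in A333fs against Splice del, and with at least 10 counts in every library 7 in C321fs and 0 lower in A333fs against C321fs. Fits to the pair alone gave 5 in Splice del, 0 lower in both comparisons with C321fs and 25 in A333fs against Splice del. DESeq2 gave 1 higher and 4 lower in Splice del against C321fs, 4 in A333fs against C321fs and 23 in A333fs against Splice del. Removal of the GC and length trend gave 1, 1 and 2 against control (medians -0.247 in Splice del and -0.080 in A333fs), 1 higher and 12 lower in Splice del against C321fs, 3 in A333fs against C321fs and 17 in A333fs against Splice del. Removal of the GC trend alone gave 1, 0 and 0 against control, 1 higher and 10 lower, 3 higher and 0 lower, and 21 in the mutant pairs in the same order, and 29 and 23 lower in C321fs and A333fs. A threshold of 0.05 gave 6 and 9 in Splice del and C321fs, 1 higher and 6 lower, 5 higher and 3 lower, and 29 in the mutant pairs, and the 1.5-fold limit gave 1, 0 and 1 higher and 16, 1 and 6 lower against control and 0 in the mutant pairs. In these settings the cause of a change was not tested.

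Leaving out 1 library at a time gave 1 to 4 higher and 42 to 47 lower members in Splice del (median -0.337 to -0.314), 2 to 7 and 26 to 41 in C321fs (-0.262 to -0.153) and 8 to 15 and 27 to 37 in A333fs (-0.180 to -0.089). In the mutant pairs it gave 0 to 1 higher and 0 to 8 lower in Splice del against C321fs (-0.172 to -0.062), 0 to 7 and 0 to 4 in A333fs against C321fs (0.015 to 0.109) and 0 to 22 higher and 0 lower in A333fs against Splice del (0.146 to 0.185). The test of any difference among the lines gave 49 to 65 members.

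Replicate numbers are shared by the lines. Deviations of same-numbered libraries from their line means had a mean correlation of -0.0092 over 18 pairs (-0.123 to 0.165), beside 0.0046 over 36 other pairs. Since the deviations were taken from line means, both averages are tied to each other, and joint handling of same-numbered libraries was not tested. With the replicate block, 1 member was lower in Splice del against C321fs and 0 in A333fs against C321fs, 5 were higher in A333fs against Splice del, and 46, 37 and 32 were lower against control.

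Of 53 gene comparisons that had passed and were recomputed under each setting, 6 values turned in sign, with the GC trend removed with or without length: MRPL35 to -0.029 and -0.009 in C321fs and -0.014 and -0.005 in A333fs, and MRPS10 to -0.009 and -0.003 in C321fs. Other named values turned in sign with the GC and length trend removed as well: MRPS36 in Splice del (-0.063) and A333fs (-0.016), MRPS18C in C321fs (-0.175) and A333fs (-0.102), and MRPL45 in A333fs (-0.023). Counts of under 20 fragments, as in MRPS24, limit what could be detected.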
